A study of Mus musculus with 6 samples.

Results

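The guidance genes are the secreted and membrane-bound cues that steer cells and axons, and their receptors: semaphorins with plexins and neuropilins, ephrins with Eph receptors, Slits with Robo receptors, and netrins with Unc5 receptors. They were chosen by gene symbol alone, as all names in the count table that begin with Sema, Plxn, Nrp, Efn, Eph, Slit, Robo, Ntn or Unc5 and go on with the class letter or number of these families, which gave 70 of 23159 genes. Of these, 35 encode ligands and 33 encode receptors. The remaining 2, *Unc50* and *Unc5cl*, match the letters of the rule but do not encode netrin receptors. RNA was measured in label-retaining chondrocytes (LRCs, H2B-GFP high) and in non-LRCs (H2B-GFP mid to low) sorted from mouse growth plates at P49, with 1 library of each kind in each of 3 experiments. All 6 libraries came from mice homozygous for *Col2a1-tTA* (at the *Peli2* locus), *TRE-H2B-GFP* (at *Col1a1*), *Col2a1-creER* and a *R26R* tdTomato reporter. All mice had received doxycycline from P21 to P49, which stops transcription of the H2B-GFP label so that dividing cells dilute it, and tamoxifen at P46 and P47. Each LRC library was made from about 10000 cells and each non-LRC library from about 50000 cells, positive for tdTomato and negative for CD45, a marker of blood cells. Cells of littermates were pooled within an experiment, and both tTA, which switches on H2B-GFP, and creER, which switches on tdTomato, were driven by *Col2a1*.

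A guidance cue binds a receptor on a neighbouring cell or on a growth cone and changes the cytoskeleton and adhesion of the receiving cell. Class 3 semaphorins are secreted and bind neuropilins, which pass the signal on through plexins, whereas most other semaphorins are anchored in the membrane and bind plexins directly. Ephrins and Eph receptors are both held in the membrane and signal in both directions between touching cells, while Slits and netrins are secreted and act through Robo receptors and through Dcc, neogenin and Unc5 receptors. In the skeleton these cues are known for directing vessels and nerves and for exchange between osteoblasts and osteoclasts.

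Total counts per library lay between 18943789 (LRC, experiment 2) and 129559872 (LRC, experiment 1), so that 1 count was worth between 0.0478 and 0.00856 CPM (counts per 1000000 reads, normalised by the TMM method of edgeR). The LRC library of experiment 2 stood apart in its low genes: 1731 of the 13728 genes tested were at 0 there (12.6%), against 4 to 365 in the other libraries. Of the 60 guidance genes tested, 13 (21.7%) were at 0 in that library, 5 in the non-LRC library of experiment 2, 1 in the non-LRC library of experiment 3 and 0 in the other 3. All 10 chondrocyte markers measured (*Col2a1*, *Acan*, *Sox9* and others) passed the count filter. Their sum ranged from 85525 to 228613 CPM in LRCs, against 141074 to 236374 CPM in non-LRCs. Most of it was *Col2a1*, with a mean of 126227 CPM of the mean LRC sum of 159159 CPM. None of the 10 passed the test. Yet 5 (*Matn1*, *Hapln1*, *Matn3*, *Lect1*, *Comp*) were lower in LRCs at an unadjusted p below 0.05 (edgeR), beside 9.53% of all genes tested. At that limit 0 were higher. By direction alone, 9 were lower and 1, *Sox9*, was higher, and 8 were lower in all 3 experiments (background 26.0%). The other marker lists did not all stand at the same level in both groups either. Markers of superficial articular and synovial cells (*Prg4*, *Clu*, *Htra4*, *Cd55*, *Thy1*) summed to 1104 to 2053 CPM in LRCs, against 82.4 to 137.9 CPM in non-LRCs, and 2 of the 4 tested, *Prg4* and *Clu*, rose. These 2 genes made up most of the mean LRC sum of 1675 CPM, with means of 665 and 963 CPM in LRCs. By direction alone, 3 of the 4 tested were higher and 1 was lower in LRCs. Markers of mural cells and fibroblasts (5 genes) summed to 856 to 1099 CPM in LRCs, against 402 to 627 CPM in non-LRCs, and none of the 4 tested passed the test. Of these 4, 2 were higher and 1 was lower in LRCs without overlap, beside 8.41% and 10.3% of all genes tested. Both higher ones had an unadjusted p below 0.05 (edgeR), beside 8.89% of all genes tested. The log2 fold changes of the 4, LRC over non-LRC, ran from -4.76 to 2.54. Of 8 endothelial markers, *Cdh5*, *Kdr* and *Emcn* were at 0 in all libraries and the list summed to 0.372 to 3.63 CPM in LRCs, against 0.483 to 1.18 CPM in non-LRCs. Markers of leukocytes (10.7 to 27.0 against 7.67 to 12.2 CPM), Schwann cells and neurons (35.1 to 41.6 against 37.8 to 57.0 CPM, *Elavl4* at 0), muscle (4.79 to 10.4 against 8.63 to 13.6 CPM) and erythroid cells (0.120 to 0.717 against 0 to 1.31 CPM) were low in LRCs and in non-LRCs. Only 2 of the 4 erythroid markers listed were in the count table, and 1 of them was at 0 in all libraries. Markers of osteoclasts (103.1 to 118.2 against 104.4 to 161.9 CPM), osteoblasts (128.7 to 296.9 against 129.7 to 419.9 CPM) and hypertrophic chondrocytes (574 to 1819 against 685 to 2132 CPM) overlapped between the groups in their sums, although *Col1a1* rose and *Panx3* fell. Single genes made up most of the osteoclast and hypertrophic sums: *Ctsk* had a mean of 104 CPM and *Spp1* of 1079 CPM in LRCs. At an unadjusted p below 0.05 (edgeR), 3 of 5 hypertrophic markers (*Panx3*, *Col10a1*, *Ihh*) were lower in LRCs. So were 3 of 6 osteoblast markers (*Bglap*, *Bglap2*, *Sp7*) and 1 of 3 osteoclast markers tested (*Acp5*), beside 9.53% of all genes tested. Of these lists only *Col1a1* was higher, beside 8.89% of all genes tested. These values stand beside every result on guidance genes given here, and their part in those results was not tested.

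The comparison asked which guidance genes differ between slow-cycling LRCs and their more rapidly dividing neighbours. Guidance ligands were more often higher than lower in LRCs, receptors were divided, and no member passed the test: at an adjusted p below 0.05 with a fold change of at least 2, edgeR's quasi-likelihood test paired by experiment called 0 of 60 guidance genes. Of all genes tested it called 0.874% higher and 0.335% lower. At an unadjusted p below 0.05, 12 of the 60 members were higher and 6 lower in LRCs, against a background of 8.89% higher and 9.53% lower among all genes tested. In all 3 experiments 22 members were higher and 10 lower (background 20.4% and 26.0%). The LRC and non-LRC values did not overlap for 16 members, 11 higher and 5 lower in LRCs (background 8.41% and 10.3%). The median log2 fold change, LRC over non-LRC, was 0.08 over the 60 members and -0.10 over all genes tested. Fewer cells that express a gene and less RNA per cell cannot be told apart in such bulk libraries.

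The ligands and the receptors differed in these counts, although this difference was not tested. Of 31 ligands tested, 8 were higher and 1 was lower at an unadjusted p below 0.05, beside 8.89% and 9.53% of all genes tested. The groups did not overlap for 9 ligands, all higher in LRCs (background 8.41% higher and 10.3% lower). Over the 31 ligands the median log2 fold change was 0.35. Of 27 receptors tested, 4 were higher and 4 lower, the groups did not overlap for 2 higher and 4 lower ones, and the median was -0.09. The other 10 members were too low to test. Among them *Ntn5*, *Robo3*, *Robo4* and *Sema3g* had 0 counts in all libraries, which allows at most 0.0257 to 0.143 CPM per library (3 counts, counting error only). *Sema3a*, *Sema3f*, *Epha6*, *Unc5a* and *Unc5d* stayed below 1 CPM in every library. *Plxnb3* had 209 counts in the LRC library of experiment 2 and 0 to 12 counts in the others. Of the 60 tested members, 20 had fewer than 10 counts in at least 1 library.

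**Figure D1:**
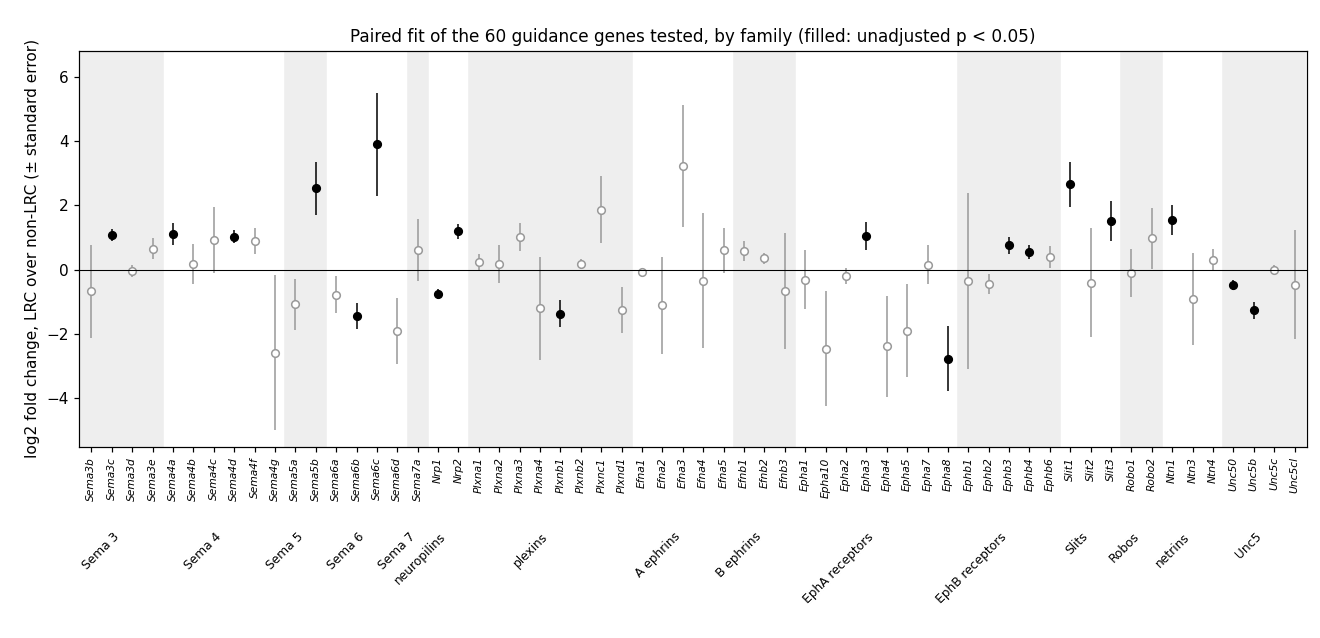
Log2 fold change of LRCs over non-LRCs for the 60 guidance genes tested, by family, with the standard error of the paired edgeR fit (y axis); filled points had an unadjusted p below 0.05. Filled points lie above 0 for 12 genes, 8 of them ligands, and below 0 for 6, and low genes such as *Ephb1* and *Sema4g* have standard errors over 2.

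Other settings called 14 members at least once, and 3 of them in at least 4 of the 9 alternatives. *Sema3c*, *Nrp2* and *Unc5b* were called in 5, 4 and 4 alternatives, with an adjusted p of 1.06e-05 to 0.361, 0.000246 to 0.320 and 0.000781 to 0.376 over these alternatives. Of 66 members fitted, DESeq2 with the same pairing called 8 higher (*Nrp2*, *Ntn1*, *Sema3c*, *Sema4a*, *Sema4d*, *Sema5b*, *Sema6c*, *Slit1*) and 3 lower (*Plxnb1*, *Sema6b*, *Unc5b*). Of 60 members fitted, limma-voom called 3 higher (*Nrp2*, *Sema3c*, *Sema4f*) and 2 lower (*Epha8*, *Unc5b*). These tools also called more of the whole table, with 799 of 17835 and 621 of 13728 genes, against 166 of 13728 in the edgeR fit. Without experiment 2, whose LRC library is the shallowest, edgeR called 4 of 61 members higher (*Nrp2*, *Sema3c*, *Sema4f*, *Slit1*) and 3 lower (*Epha8*, *Sema5a*, *Unc5b*). In that fit 555 of all 14568 genes were called.

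**Figure D2:**
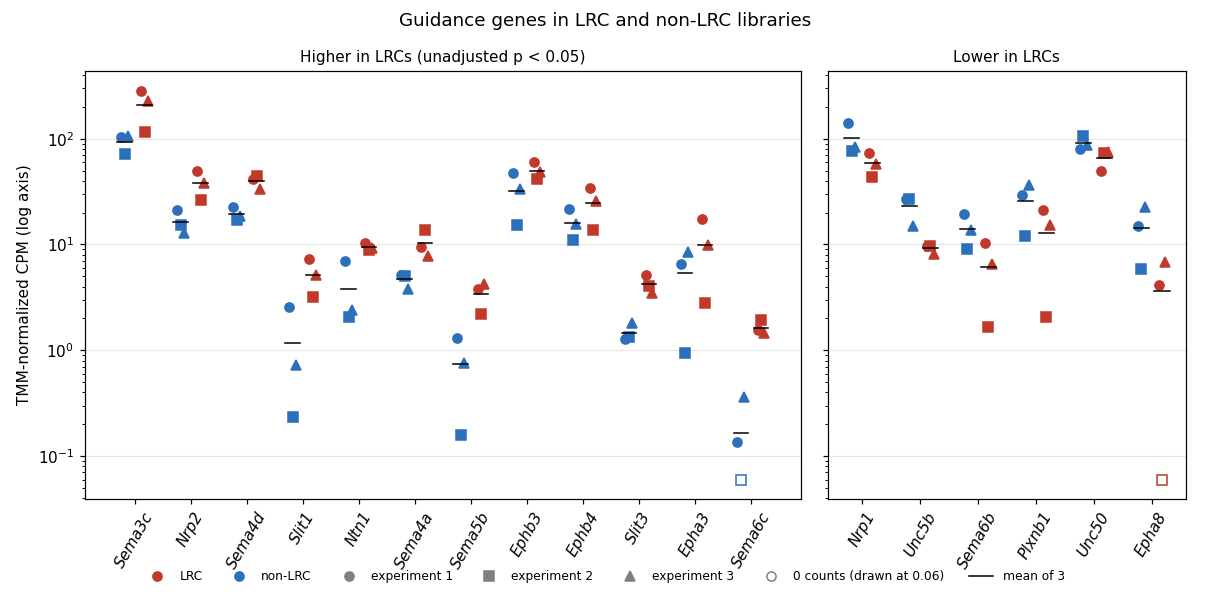
TMM-normalised CPM (log axis) of the 18 guidance genes with an unadjusted p below 0.05, in each LRC (red) and non-LRC (blue) library; marker shapes give the experiment, bars the mean of 3 libraries and open symbols 0 counts. The red and blue symbols are apart for *Sema3c*, *Nrp2*, *Sema4d*, *Slit1*, *Ntn1*, *Sema4a*, *Sema5b*, *Slit3*, *Sema6c*, *Nrp1*, *Unc5b* and *Unc50*, and the square of experiment 2 is the lowest LRC symbol for all 6 genes drawn whose groups overlap.

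Neuropilins are the ligand-binding partners of plexins for class 3 semaphorins and also bind VEGF family members, and the 2 genes lay on opposite sides. *Nrp2* (chr1:62703285-62818695, plus strand, GENCODE vM21 on GRCm38) was at 49.0, 26.3 and 38.5 CPM in the LRCs of experiments 1, 2 and 3 and at 21.3, 15.3 and 12.9 CPM in the non-LRC libraries. Every LRC library was above every non-LRC library, with means of 37.9 ± 11.4 and 16.5 ± 4.31 CPM (SD, n = 3). The log2 fold change was 1.19 ± 0.23 (± standard error, here and below, edgeR adjusted p = 0.0769). *Nrp1* (chr8:128358604-128503363, plus strand) was at 72.9, 43.9 and 58.1 CPM in LRCs, and its non-LRC values were 141, 76.9 and 83.9 CPM. Every LRC library was below every non-LRC library, with an estimated log2 fold change of -0.76 ± 0.16 (standard error, edgeR adjusted p = 0.0819). Per kilobase of exon, *Nrp1* had the higher level of the pair in both groups, with mean values of 5.96 CPM (LRCs) and 10.3 CPM (non-LRCs), against 3.20 and 1.39 CPM for *Nrp2*. *Nrp2* made up 35.7%, 33.1% and 35.4% of the pair per exon length in LRCs and 11.1%, 14.1% and 11.3% in non-LRCs. This share and those of 2 further pairs given below were chosen after their values were seen and carry no test.

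Among class 3 semaphorins, the secreted ligands of neuropilins, *Sema3d* and *Sema3c* were the most abundant. Per kilobase of exon they had mean levels of 44.5 and 21.2 CPM over the 6 libraries, and *Sema3e*, the next in the class, had 1.11 CPM. *Sema3c* (chr5:17574281-17730268, plus strand) was at 284, 115 and 227 CPM in LRCs, and its non-LRC values were 103, 72.4 and 106 CPM. The lowest LRC value was above the highest non-LRC value, with means of 209 ± 85.9 and 93.7 ± 18.5 CPM (SD, n = 3). The log2 fold change was 1.08 (standard error 0.19, edgeR adjusted p = 0.0613), the smallest adjusted p among the guidance genes. *Sema3d*, which lies on the same chromosome, was at 431, 267 and 448 CPM in LRCs, and its non-LRC values were 415, 363 and 369.6 CPM, so that the groups overlapped (log2 fold change -0.04, edgeR adjusted p = 0.931). *Sema3c* therefore made up 44.2%, 34.2% and 37.9% of the pair per exon length in LRCs and 22.9%, 19.4% and 25.7% in non-LRCs, without overlap. *Sema3b* and *Sema3e* were tested too, and neither had an unadjusted p below 0.05.

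**Figure D3:**
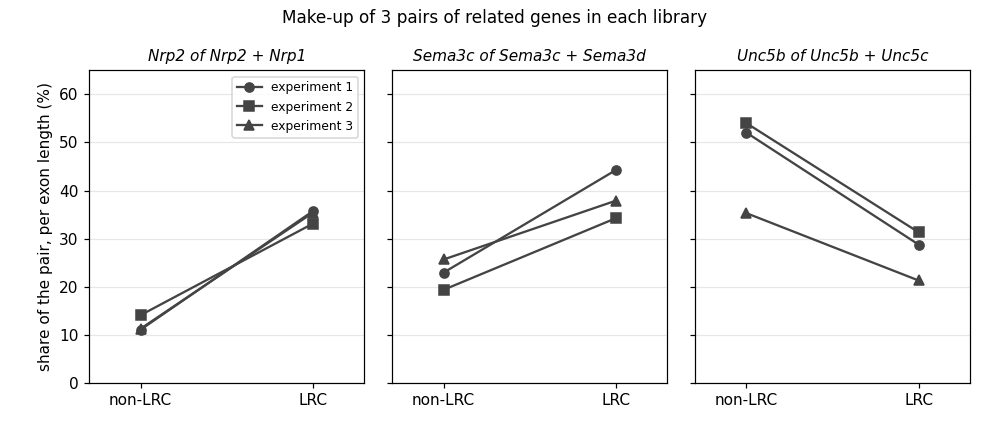
Share of each pair's CPM per kilobase of exon taken by the first gene (y axis, %), in the non-LRC and LRC library of each experiment, joined by lines. *Nrp2* and *Sema3c* took a higher share and *Unc5b* a lower share in LRCs in all 3 experiments, and the groups do not overlap for any of the 3 pairs.

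Class 4 to class 7 semaphorins are anchored in the membrane, and those of classes 4 and 5 that had an unadjusted p below 0.05 were higher in LRCs. *Sema4d*, a ligand of plexin-B1 that osteoclasts use to restrain osteoblasts, was at 41.9, 44.2 and 33.5 CPM in LRCs, and its non-LRC values were 22.6, 17.1 and 18.6 CPM. The groups were well apart, with an estimated log2 fold change of 1.03 ± 0.21 (standard error, edgeR adjusted p = 0.0808). *Sema4a*, known from immune cells and the retina, was at 9.55, 13.7 and 7.73 CPM in LRCs, and its non-LRC values were 5.20, 5.001 and 3.80 CPM, again without overlap (log2 fold change 1.12 ± 0.35, edgeR adjusted p = 0.178). *Sema4f* had the highest level of the class per kilobase of exon (4.44 CPM), but its groups overlapped, at 36.6, 21.2 and 32.2 CPM in LRCs, against 10.2, 25.0 and 15.6 CPM in the non-LRC libraries. Its log2 fold change was 0.89 (edgeR adjusted p = 0.327), and it was 0.40 (adjusted p = 0.779) without experiment 1 and 1.44 (adjusted p = 0.0294) without experiment 2. All 6 class 4 genes were tested, and the other 3 had an unadjusted p above 0.05.

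*Sema5b*, a class 5 semaphorin with thrombospondin repeats, was at 3.77, 2.199 and 4.19 CPM in LRCs, and its non-LRC values were 1.32, 0.157 and 0.765 CPM. Its groups did not overlap, and its log2 fold change was 2.53 (standard error 0.82, edgeR adjusted p = 0.187). In class 6, whose members bind plexin-A receptors, directions were divided. *Sema6c* was at 1.54, 1.91 and 1.47 CPM in LRCs, and its non-LRC values were 0.136, 0 and 0.362 CPM, which were 14, 0 and 18 counts. Its groups did not overlap (edgeR adjusted p = 0.271), and its fitted fold change is not given because it depends on how the library at 0 is treated. *Sema6b* was at 10.4, 1.67 and 6.49 CPM in LRCs, and its non-LRC values were 19.4, 9.06 and 13.6 CPM. It was lower in LRCs in every experiment, although the groups overlapped (log2 fold change -1.43 ± 0.41, edgeR adjusted p = 0.1504). Without experiment 2 its log2 fold change was -0.98. *Sema6a* had the highest level of the class per kilobase of exon, and 1 library set its direction: it was at 27.1, 4.35 and 30.5 CPM in LRCs, and its non-LRC values were 28.0, 26.9 and 28.2 CPM. Its log2 fold change was -0.77 (edgeR adjusted p = 0.531) with all experiments and 0.03 without experiment 2. *Sema7a*, the GPI-anchored semaphorin, was at 3.38, 23.4 and 3.40 CPM in LRCs, and its non-LRC values were 14.6, 10.6 and 0.563 CPM. It was lower in LRCs in experiment 1 and higher in the other two, and its log2 fold change of 0.61 was smaller than its standard error of 0.97.

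Plexins are the signalling receptors for these ligands. *Plxnb2* had the highest level of the family per kilobase of exon, 16.3 CPM, with 199.7, 69.5 and 136 CPM in LRCs, against 156, 65.7 and 128 CPM in the non-LRC libraries. It overlapped between groups, with a log2 fold change of 0.18 (edgeR adjusted p = 0.560). *Plxnb1*, the receptor of Sema4d, was at 21.4, 2.06 and 15.1 CPM in LRCs, and its non-LRC values were 29.3, 11.9 and 36.1 CPM. In each experiment the LRC value was the lower one, but the groups overlapped (log2 fold change -1.37 ± 0.42, edgeR adjusted p = 0.170). Without experiment 2 its log2 fold change was -0.85. *Plxnd1*, a receptor of class 3 semaphorins best known from vessels, was chosen for naming after its values were seen, because its groups did not overlap. It was at 1.88, 0.813 and 1.33 CPM in LRCs, and its non-LRC values were 2.78, 3.69 and 2.74 CPM, with an estimated log2 fold change of -1.25 ± 0.72 (standard error, edgeR adjusted p = 0.417). Of the 8 plexins tested, 7 had an unadjusted p above 0.05.

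Ephrins and Eph receptors carried the most abundant gene of all members. *Efna1*, a GPI-anchored A ephrin, had a mean of 89.3 CPM per kilobase of exon, and its partner *Epha2* led the Eph receptors with 22.0 CPM per kilobase. *Efna1* was at 145, 181 and 150.1 CPM in LRCs, and its non-LRC values were 166, 180.3 and 158 CPM. The groups overlapped, and the log2 fold change was -0.08 with a standard error of 0.13 (edgeR adjusted p = 0.778). *Epha2* was at 92.5, 92.2 and 93.4 CPM in LRCs, and its non-LRC values were 166, 99.9 and 73.2 CPM. The LRC values lay close together inside the range of the non-LRC values, and the log2 fold change of -0.20 (edgeR adjusted p = 0.709) became 0.11 without experiment 1. *Efnb2*, the B ephrin known from arterial endothelium and a ligand of Ephb4, was at 71.0, 53.8 and 69.8 CPM in LRCs, and its non-LRC values were 70.0, 40.5 and 45.3 CPM (log2 fold change 0.35, edgeR adjusted p = 0.367). None of the 8 ephrins had an unadjusted p below 0.05. *Efna3*, named after its values were seen, was the ephrin whose groups did not overlap, at 0.668, 2.82 and 0.908 CPM in LRCs, against 0.0968, 0 and 0.543 CPM in the non-LRC libraries (edgeR adjusted p = 0.428).

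Of 13 Eph receptors tested, 3 were higher and 1 was lower in LRCs at an unadjusted p below 0.05 (background 8.89% and 9.53%). The LRC and non-LRC values overlapped for all 4. *Ephb3* was at 60.2, 41.3 and 48.3 CPM in LRCs, and its non-LRC values were 47.8, 15.3 and 33.7 CPM, with an estimated log2 fold change of 0.75 ± 0.26 (standard error, edgeR adjusted p = 0.208) that was 0.42 without experiment 2. *Ephb4* was at 34.0, 13.7 and 25.6 CPM in LRCs, and its non-LRC values were 21.5, 11.02 and 15.8 CPM (log2 fold change 0.56 ± 0.22, edgeR adjusted p = 0.263). Both were higher in LRCs within every experiment, and experiment 2 was the lowest in each group. *Epha3* was at 17.3, 2.82 and 9.80 CPM in LRCs, and its non-LRC values were 6.52, 0.943 and 8.53 CPM (log2 fold change 1.05 ± 0.43, edgeR adjusted p = 0.268). *Epha8* was at 4.12, 0 and 6.77 CPM in LRCs, and its non-LRC values were 14.8, 5.81 and 22.6 CPM, where the count of 0 allows at most 0.143 CPM. It was lower in LRCs in every experiment (edgeR adjusted p = 0.225), and without experiment 2, which holds the library at 0, its log2 fold change was -1.79 (adjusted p = 0.0146). Outside the rule for names, the groups also did not overlap for *Ephb6*, a receptor without kinase activity (8.70 to 12.95 CPM in LRCs, against 6.89 to 8.03 CPM in non-LRCs), and for *Epha5* (0 to 4.35 and 4.69 to 5.39 CPM).

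**Figure D4:**
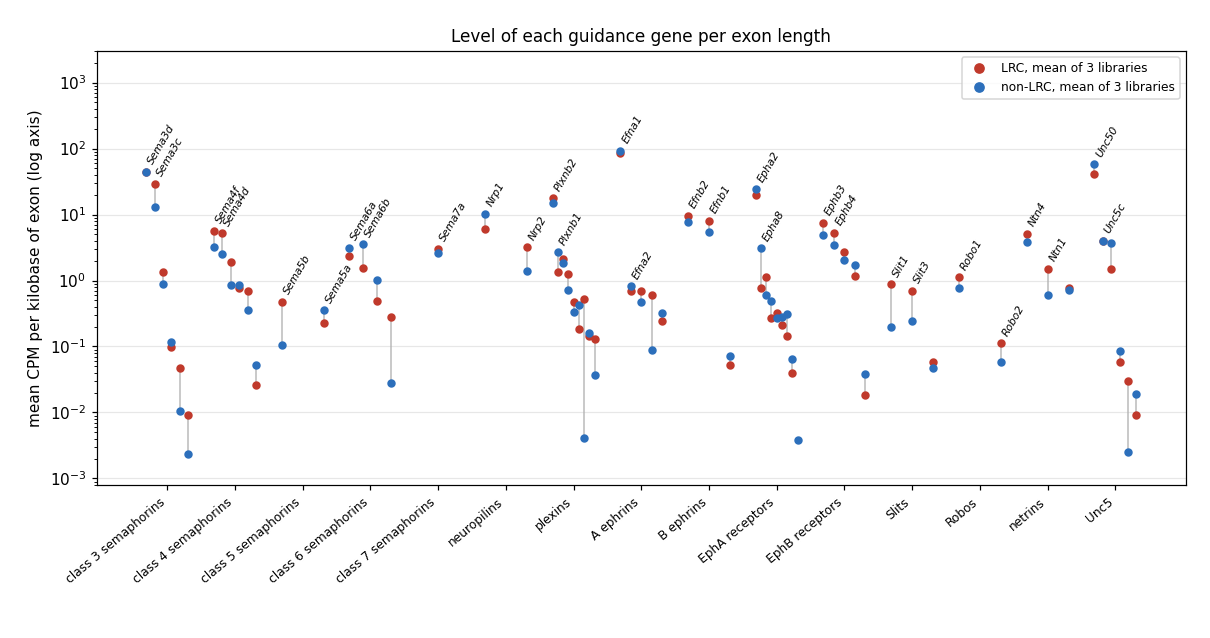
Mean CPM per kilobase of exon (log axis) of each guidance gene in LRCs (red) and non-LRCs (blue), by family, with the leading genes named; a mean of 0 is not drawn. *Efna1* has the highest level, and in the neuropilins, Slits and Unc5 genes the distance between red and blue is wider for *Nrp2*, *Slit1*, *Slit3* and *Unc5b* than for *Nrp1* and *Unc5c*.

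Slits are secreted ligands, and 2 of the 3 were higher in LRCs at an unadjusted p below 0.05 (background 8.89%), while none of the Robo receptors was. *Slit1* was at 7.30, 3.15 and 5.14 CPM in LRCs, and its non-LRC values were 2.58, 0.236 and 0.724 CPM. Its groups did not overlap, with an estimated log2 fold change of 2.65 ± 0.71 (standard error, edgeR adjusted p = 0.131), which was 2.12 (adjusted p = 0.0443) without experiment 2. *Slit3* was at 5.11, 4.01 and 3.49 CPM in LRCs, and its non-LRC values were 1.27, 1.34 and 1.81 CPM, also without overlap (log2 fold change 1.52 ± 0.61, edgeR adjusted p = 0.266). *Slit2* had values from 0.0233 to 2.69 CPM and no common direction over the experiments. *Robo1*, the leading receptor, was at 28.1, 1.10 and 26.1 CPM in LRCs, and its non-LRC values were 20.4, 6.47 and 10.9 CPM. It was higher in LRCs in experiments 1 and 3 and lower in experiment 2, so that its log2 fold change was -0.09 (edgeR adjusted p = 0.960) with all experiments and 0.85 (adjusted p = 0.0944) without experiment 2. *Robo2* lay between 0.445 and 2.63 CPM, and its groups overlapped.

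On the netrin side, the ligand *Ntn1* was higher and the receptor *Unc5b* lower in LRCs. *Ntn1*, the netrin for which the family is best known, was at 10.4, 8.79 and 9.36 CPM in LRCs, and its non-LRC values were 6.91, 2.04 and 2.41 CPM. The groups did not overlap, with an estimated log2 fold change of 1.55 ± 0.47 (standard error, edgeR adjusted p = 0.164). *Ntn4*, a netrin of basement membranes, had the highest level of the netrins per kilobase of exon (4.43 CPM). It was at 29.9, 8.22 and 18.6 CPM in LRCs, and its non-LRC values were 20.9, 11.4 and 10.3 CPM, which overlapped (log2 fold change 0.31, edgeR adjusted p = 0.668). *Unc5b* (chr10:60762593-60831581, minus strand) was at 9.76, 9.75 and 8.17 CPM in LRCs, and its non-LRC values were 26.7, 27.0 and 14.95 CPM. Every LRC value was below every non-LRC value, with means of 9.23 ± 0.917 and 22.9 ± 6.89 CPM (SD, n = 3). Its log2 fold change was -1.27 (standard error 0.26, edgeR adjusted p = 0.0820). *Unc5c*, the other well expressed receptor of the family, was at 73.9, 65.4 and 92.3 CPM in LRCs, and its non-LRC values were 75.4, 70.4 and 83.8 CPM, and the log2 fold change was 0.00 with a standard error of 0.15 (edgeR adjusted p = 0.994). *Unc5b* made up 28.8%, 31.3% and 21.3% of this pair per exon length in LRCs and 52.0%, 54.0% and 35.3% in non-LRCs, without overlap. Among the other netrin receptors, *Neo1*, which encodes neogenin, was at 139.9 to 321 CPM in LRCs, against 160.5 to 384 CPM in non-LRCs, with a log2 fold change of -0.09 (edgeR adjusted p = 0.827), and *Dcc* was too low to test, at no more than 0.0604 CPM.

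The letters ahead of *Nrp2* and *Unc5b* are shown because these receptors were called in 4 alternatives each, in opposite directions, and the RefSeq window of each (GRCm38.p6) lies ahead of the gene's annotated start. Each line gives 200 bases that end 50 bases before the RefSeq start, read 5′ to 3′ on the strand of the gene. Capitals mark the GC box GGGCGG or its reverse complement CCGCCC, matches that may overlap by 1 base. The first window is chr1:62703067-62703266 on the plus strand and the second chr10:60831632-60831831 on the minus strand.
Nrp2: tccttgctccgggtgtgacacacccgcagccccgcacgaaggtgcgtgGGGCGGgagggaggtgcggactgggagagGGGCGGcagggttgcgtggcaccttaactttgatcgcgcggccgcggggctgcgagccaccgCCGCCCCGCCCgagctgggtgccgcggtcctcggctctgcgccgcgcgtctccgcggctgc
Unc5b: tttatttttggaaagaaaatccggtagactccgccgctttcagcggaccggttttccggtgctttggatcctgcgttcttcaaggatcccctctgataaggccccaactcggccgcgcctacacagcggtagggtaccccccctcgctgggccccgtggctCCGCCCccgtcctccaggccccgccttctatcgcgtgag

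The *Nrp2* window held 4 GC boxes, 28 CpG dinucleotides and 75.5% G and C, and the *Unc5b* window 1 GC box, 18 CpG dinucleotides and 62% G and C. Over the 32851 windows of the RefSeq table, cut in the same way, 24.6% held a GC box, and the medians were 4 CpG dinucleotides and 51.5% G and C. The TATA box letters TATAAA were found in 9.14% of all windows and the SOX core letters ACAAT in 23.7%, on either strand, and neither was in the 2 windows printed. Matches describe letters in these windows only. Of the 70 members, 61 had a window in the table.

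*Unc50* and *Unc5cl* carry the name of the uncoordinated worm mutants but belong to other families. *Unc50*, which encodes a membrane protein of the secretory pathway, was at 49.6, 72.9 and 75.6 CPM in LRCs, and its non-LRC values were 79.5, 106.7 and 86.8 CPM, without overlap (log2 fold change -0.48 ± 0.16, edgeR adjusted p = 0.207). *Unc5cl* did not exceed 0.532 CPM in any library.

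The same fit covered genes that act with these families: coreceptors and other ligands, and effectors inside the cell. Of 71 listed, 70 were in the count table and 58 were tested, and 8 were higher and 5 lower in LRCs at an unadjusted p below 0.05, beside 8.89% and 9.53% of all genes tested. Their median log2 fold change was -0.21. *Rnd1*, a small GTPase that binds plexins, fell: it was at 18.5, 22.7 and 21.2 CPM in LRCs, and its non-LRC values were 56.5, 53.8 and 45.8 CPM. The groups were far apart, with an estimated log2 fold change of -1.32 ± 0.20 (standard error, edgeR adjusted p = 0.0478). Its adjusted p over the 9 alternatives was 8.78e-07 to 0.212, and the call was lost without the pairing (0.169), without experiment 1 (0.212) and without experiment 3 (0.0530). *Grb10*, an adaptor of receptor tyrosine kinases, was at 302, 155 and 251 CPM in LRCs, and its non-LRC values were 487, 264 and 463 CPM, below its pair in each experiment but overlapping between groups (log2 fold change -0.78, edgeR adjusted p = 0.0612). *Rras2*, a relative of the R-Ras proteins on which plexins act, was at 88.5, 83.7 and 89.7 CPM in LRCs, and its non-LRC values were 159.9, 266 and 148 CPM, without overlap (log2 fold change -1.08, edgeR adjusted p = 0.0808). By role, 3 of 12 coreceptors and other ligands, 3 of 16 plexin effectors, 1 of 18 Eph and ephrin effectors and 1 of 5 Slit and Robo effectors were higher at an unadjusted p below 0.05. Those lower were 3 plexin effectors, 1 Eph and ephrin effector and 1 of 7 netrin effectors.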

How the data were processed

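The authors aligned single-end reads to mm10 (GRCm38) with TopHat2 2.0.13 and Bowtie2 2.2.1 and counted non-ambiguous reads per gene with HTSeq. They tested for differences with DESeq2 and a term for the mouse of origin. Of the fits reported here, DESeq2 with the experiment as a block is the closest to theirs. The deposited table of raw counts for 23159 genes was used. The 2 other deposited tables, counts divided by size factors and rlog values, were not used here. The annotation and strand setting of the counting are not given in the sources used here, so members whose exons overlap another counted gene (*Epha1*, *Epha10*, *Ephb4*, *Nrp1*, *Ntn3*, *Ntn5*, *Unc5a*) or an antisense gene (*Efna3*, *Epha6*, *Plxnb1* and *Unc5c* among those named) are uncertain. Samples were grouped by the sample labels. The replicate number marks the experiment, whose LRCs and non-LRCs came from littermates collected together. Deviations from the group means correlated within experiments 1, 2 and 3 with Pearson r of 0.197, 0.288 and 0.336 across genes. No library was a copy of another, with a chi-square of 176.8 to 802.9 per gene between libraries.

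Counts were fitted in R 4.3.3 with edgeR 4.0.16 (TMM, filterByExpr at a count of 10 and a total of 15, quasi-likelihood test, experiment as a block), with Benjamini-Hochberg adjustment over the 13728 genes kept. Differences in single experiments used log2 CPM with a prior count of 2. A call needed a fold change of 2 or more with an adjusted p below 0.05, and ± beside a log2 fold change is its standard error. Alternatives were DESeq2 1.42.0, limma-voom (limma 3.58.1), DESeq2 size factors, no block, 2 other count filters and leaving out each experiment. Fits were also run on counts simulated with known fold changes from the dispersions that edgeR estimated. That simulation did not copy the many genes at 0 in the LRC library of experiment 2, so it cannot speak to them. Exon lengths and coordinates came from GENCODE vM21, where all 70 members matched, and levels between genes were compared per kilobase of exon only. Limits for a count of 0 used 3 counts and cover counting error only. Named were members with an unadjusted p below 0.05, the member of each family with the highest CPM per kilobase, and of the other pathway genes those with an adjusted p below 0.05 and the 3 of smallest p, beside exceptions stated in the text. The members and gene lists were chosen with earlier results of these data known.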

Additional observations from a re-analysis of the deposited data

How the results depend on the processing

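No guidance gene was called in the paired edgeR fit, and 14 were called under at least 1 of 9 alternatives. The numbers called higher and lower were 8 and 3 with DESeq2 (799 of 17835 genes called in all) and 3 and 2 with limma-voom (621 of 13728). They were 3 and 1 with at least 10 counts in every library (434 of 11129) and 1 and 0 without a filter (221 of 17835). Without the replicate block (1 of 13728 genes called in all) and with DESeq2 size factors in edgeR (180 of 13728) they were 0 and 0. Leaving out 1 experiment gave 0 to 4 higher and 0 to 3 lower, the highest without experiment 2 (555 of 14568 genes called in all). The number with an unadjusted p below 0.05, 18 in the paired fit, was 11 without the replicate block and 12 to 24 when 1 experiment was left out. Without experiment 1 the whole table had 35 calls among 13805 genes, and without experiment 3 it had 223 among 14044. Of 284 values of the 32 named genes under the alternatives, 9 changed direction, and the cause was not tested. With 1 experiment left out, the log2 fold change lay between -0.46 and 0.11 for *Epha2*, -0.93 and 0.85 for *Robo1*, -0.18 and 0.17 for *Sema3d*, -1.29 and 0.0307 for *Sema6a*, -0.46 and 1.83 for *Sema7a*, and -0.0455 and 0.0564 for *Unc5c*. The direction turned without experiment 1 for *Epha2*, without experiment 2 for *Robo1*, *Sema3d* and *Sema6a*, and without experiment 3 for *Sema7a* and *Unc5c*. It was 0.60 for *Robo1* and -0.59 for *Sema7a* in limma-voom, and 0.55 for *Robo1* without the replicate block. Of the 60 members tested, 20 had fewer than 10 counts in at least 1 library. Where 1 count was worth 0.0478 CPM, in the LRC library of experiment 2, 13 members were at 0, among them *Epha8*, which was at 4.12 and 6.77 CPM in the other LRC libraries.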
